A study of Mus musculus with 22 samples.

Results

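The levels of 35 genes of red cell formation and heme synthesis were followed in 22 RNA libraries from the mouse ulna. The list held 36 genes, of which 35 were found by symbol among the 25471 genes of the deposited tables and 1 was not analysed here. The genes had been proposed as a set, and comprised 4 adult globin genes, 8 genes of heme synthesis and iron supply, 12 genes of the red cell membrane and surface, 8 regulators and 3 other red cell genes. The libraries came from the middle segment of both ulnae of 11 mice. In 7 wildtype mice (WT) and 4 Tlr4 conditional knockout mice (CKO) the right ulna had been loaded mechanically and the left had not, which gave 4 groups: WT non-loaded, WT loaded, CKO non-loaded and CKO loaded. The title of the series names Toll-like receptor 4 signalling in osteoblasts and load-induced bone formation as its subject. The sources used here do not give the Cre driver of the knockout, the age and sex of the mice, the loading regime or the time from loading to harvest.

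Red cells form in the bone marrow, where erythroblasts fill with hemoglobin before they lose their nucleus, and young red cells still carry RNA. Heme is made from glycine and succinyl-CoA, a path that begins and ends in the mitochondrion and whose first step in erythroblasts is carried out by Alas2. A skeleton of spectrin, tied to band 3 through ankyrin, supports the membrane, and the transcription factors GATA1, TAL1 and KLF1 switch on much of this program under erythropoietin. A piece of bone taken whole holds marrow, bone cells and remnants of attached muscle together. In such samples fewer cells of a type and less RNA per cell cannot be told apart.

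The DNA before the start site is shown for 7 of the 35 genes, picked because the words searched were found there. RefSeq promoter entries on GRCm38.p6 were at hand for 28 of the 35 genes. Each line below gives the 120 bases before the annotated start, read toward the gene, with capitals marking words of 2 kinds on either strand. The first kind are the GATA words AGATAA and AGATAG and the words TGATAA and TGATAG, letters that GATA1 is known to bind. The second is the word CCNCNCCC, a pattern of the CACC kind bound by KLF-family factors. Overlapping matches run together in one stretch of capitals.
Alas2, chrX:150547297-150547416, plus strand: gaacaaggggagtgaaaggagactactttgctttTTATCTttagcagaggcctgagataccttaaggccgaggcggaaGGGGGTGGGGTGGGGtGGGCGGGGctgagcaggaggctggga
Klf1, chr8:84901862-84901981, plus strand: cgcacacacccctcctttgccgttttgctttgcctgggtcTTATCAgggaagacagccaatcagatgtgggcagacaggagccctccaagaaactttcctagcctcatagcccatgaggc
Gata1, chrX:7967911-7968030, minus strand: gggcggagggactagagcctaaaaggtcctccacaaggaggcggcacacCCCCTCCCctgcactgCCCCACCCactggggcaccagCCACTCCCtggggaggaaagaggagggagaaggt
Rhag, chr17:40811029-40811148, plus strand: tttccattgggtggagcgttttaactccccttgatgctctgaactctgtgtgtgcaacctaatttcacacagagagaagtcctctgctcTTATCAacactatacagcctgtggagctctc
Kel, chr6:41704326-41704445, minus strand: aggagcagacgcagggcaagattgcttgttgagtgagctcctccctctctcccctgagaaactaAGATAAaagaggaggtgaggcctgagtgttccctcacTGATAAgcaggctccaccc
Hbb-bs, chr7:103827929-103828048, minus strand: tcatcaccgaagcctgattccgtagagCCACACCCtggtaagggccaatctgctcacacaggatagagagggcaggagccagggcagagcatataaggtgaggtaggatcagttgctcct
Hbb-bt, chr7:103813924-103814043, minus strand: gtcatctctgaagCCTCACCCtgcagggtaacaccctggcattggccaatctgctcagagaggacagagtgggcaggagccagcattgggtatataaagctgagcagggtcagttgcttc
Over the 250 bases before the start, 20 of the 35 entries for these genes (57.1%) held a GATA word, as did 26.5% of all 32851 entries. The word CCNCNCCC was in 57.1% of these genes' entries and in 45.9% of all. The classical CACCC box of the beta-globin gene, CCACACCC, was found in Hbb-bs only among these entries, beside 3.20% of all entries. Hba-a1, Hba-a2, Tfrc, Epb42, Tal1, Trim10 and Urod had no marked word in the 120 bases before the start. These matches are descriptions of letters and not sites of binding, and their relation to the levels was not tested.

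The globin genes come in pairs that are nearly the same gene. The coding sequences of Hba-a1 and Hba-a2, on chromosome 11, are 429 bases long and differ at 1 base, C381T from Hba-a1 to Hba-a2, counted from the A of the start codon. Those of Hbb-bs and Hbb-bt, on chromosome 7, are 444 bases long and differ at 1 base, C417T from Hbb-bs to Hbb-bt. A read from within the coding sequence can be assigned to 1 copy only where it covers that base. The transcripts also differ outside the coding sequence. The coding stretches that hold these bases are shown with the differing base as the capital (GENCODE M21 transcripts, bases 351 to 410 of the alpha pair and 385 to 444 of the beta pair).
Hba-a1: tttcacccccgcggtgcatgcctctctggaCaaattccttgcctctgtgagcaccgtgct
Hba-a2: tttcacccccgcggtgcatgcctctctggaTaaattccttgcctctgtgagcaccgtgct
Hbb-bs: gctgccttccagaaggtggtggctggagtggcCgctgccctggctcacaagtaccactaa
Hbb-bt: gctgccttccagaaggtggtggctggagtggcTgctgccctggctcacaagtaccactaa
Of the 50-base windows of the transcripts, 86.9% of those of Hba-a2 and 67.5% of those of Hba-a1 occur in the other copy, so that a read of that length from there fits both. For Hbb-bs and Hbb-bt the shares were 65.8% and 58.3%. The counts of single copies are therefore uncertain, and the summed pairs are given beside them.

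Totals ran from 21999891 to 42833729 counts per library. Levels are given in CPM, counts scaled to a common library size. In WT mice Tlr4 had 32.5 ± 4.89 CPM (SD, n = 7) without and 33.4 ± 4.82 with loading, and in CKO mice 30.1 ± 3.43 (n = 4) without and 29.2 ± 3.16 with loading. Its log2 difference between genotypes was -0.11 ± 0.12 (SE) in non-loaded and -0.20 ± 0.12 in loaded ulnae (edgeR's quasi-likelihood test, adjusted p = 0.976 and 0.606), so the level of Tlr4 in whole bone did not check the genotype labels. 3 libraries stood apart for the red cell genes, with summed levels of the 35 of 7733 CPM in the WT loaded ulna of mouse 694, 7111 in the CKO non-loaded ulna of mouse 691 and 6502 in the WT non-loaded ulna of mouse 699. The other 19 had 1386 to 4485 CPM, and results that rest on these mice are given with and without them.

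All 35 genes were present in every library, with 45 to 56192 counts. Together they took 0.134% of the counts in the lowest library, the non-loaded ulna of WT mouse 685, and 0.874% in the highest, the loaded ulna of WT mouse 694. The 4 globin genes took 0.00724% to 0.0910%. Levels of different genes were compared per length, as CPM per kilobase of exon, here as the median of the 22 libraries. Hbb-bs, a beta-globin chain, was highest at 143, followed by the alpha-globin gene Hba-a2 at 129. The next were Slc4a1, which encodes the anion exchanger band 3, at 101, and Alas2, the first enzyme of heme synthesis in erythroblasts, at 68.3. Slc25a37, the mitochondrial iron importer mitoferrin, had 42.3, and Tfrc, the transferrin receptor through which cells take up iron, 34.6. The second copies Hbb-bt (19.2) and Hba-a1 (8.64) lay far below their partners, and Add2, a spectrin-binding adducin, was lowest of the 35 at 4.05. The ranges over libraries of Hbb-bs (51.6 to 561), Hba-a2 (45.9 to 383), Slc4a1 (29.1 to 287) and Alas2 (23.0 to 182) overlapped. The genes were measured in the same libraries and moved together, so this overlap cannot show whether neighbours in the order differ. The order also rests on the length used. With the length of the longest transcript, Tfrc (43.8) passed Slc25a37 (43.0). Hbb-bs (175), Hba-a2 (155), Slc4a1 (109) and Alas2 (80.5) still came first, in that order. The order was not tested.

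**Figure D1:**
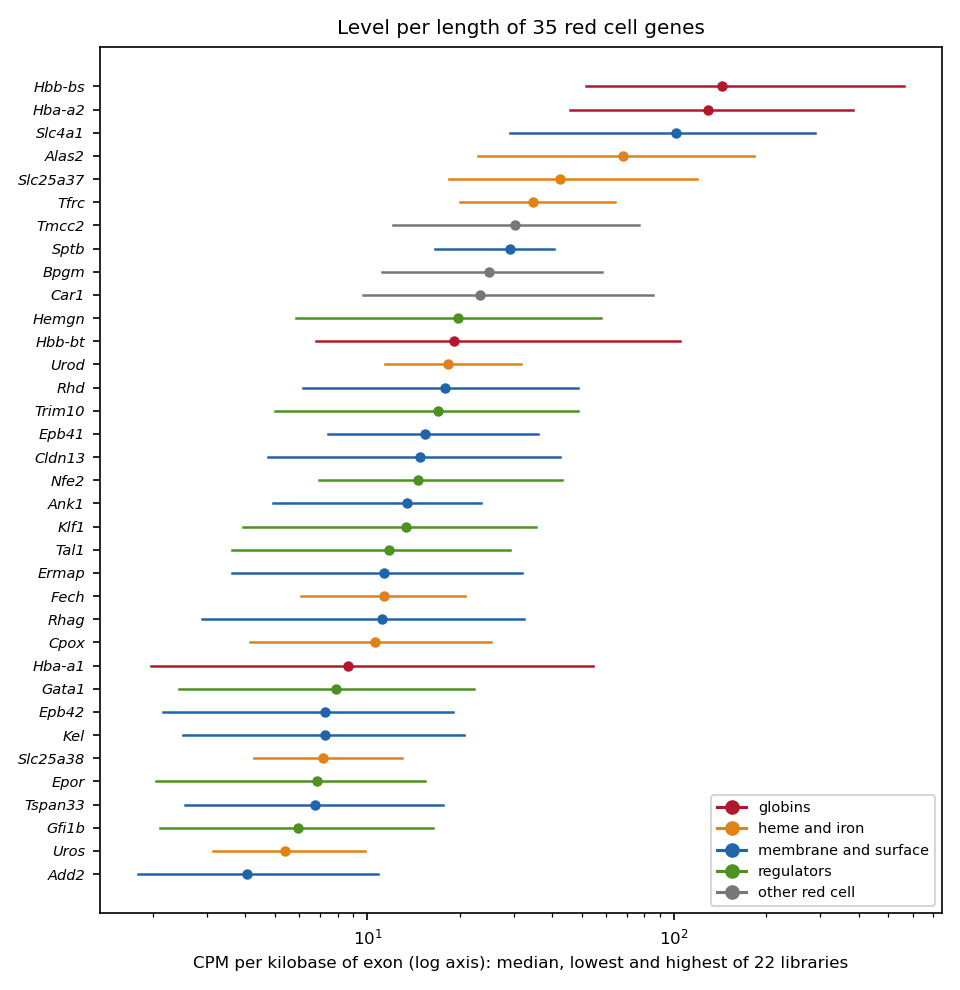
Level per length of the 35 genes, as CPM per kilobase of exon on a log axis; points are medians and lines run from the lowest to the highest of 22 libraries, coloured by role. Hbb-bs (median 143) and Hba-a2 (129) head the order and Slc4a1 (101) and Alas2 (68.3) come next, with overlapping ranges.

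How far the globins stood above the other red cell genes depended on whether their copies were summed. The summed alpha pair had a median of 136 CPM per kilobase over the 22 libraries, 11.4 times the median of the other 31 genes in the same library (6.30 to 14.1 times). The summed beta pair had 160 CPM per kilobase, 12.9 times that median (4.97 to 20.95 times). Taken as single genes, of which Hba-a1 and Hbb-bt are low, the median of the 4 globin genes divided by the median of the other 31 genes, both in CPM per kilobase, was 5.68 over the 22 libraries and ranged from 2.49 to 7.89. In WT ulnae it was 6.14 ± 1.54 (SD, n = 7) without and 5.23 ± 1.63 with loading, in CKO ulnae 6.12 ± 1.28 (n = 4) without and 5.40 ± 1.0995 with loading, and the ranges of all 4 groups overlapped. Computed with means over the single genes in place of medians it was 4.00, and with the mean of the 2 summed pairs over the median of the others 12.4.

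In the wildtype mice no red cell gene passed the test for loading, although each of the 35 fitted differences lay above 0. The members called numbered 0 of 35, against 0.00532% of the 18793 genes tested (1 gene), and none of the 35 had an unadjusted p under 0.05, as 439 genes of all did (edgeR's quasi-likelihood test; DESeq2 also called 0 of the 35). The log2 differences, loaded minus non-loaded, ran from 0.16 for Hba-a1 to 0.53 for Kel, a surface metalloprotease that carries a blood group, with a median of 0.35 beside -0.0080 for all genes tested. The adjusted p was 0.9998 for every one of them.

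Among the heme and iron genes, Alas2 had 60.8, 125 and 319 CPM (lowest, median and highest of 7) in WT non-loaded ulnae and 83.7, 210 and 437 in WT loaded ulnae. The groups overlapped almost entirely, with mouse 699 highest on the non-loaded and mouse 694 highest on the loaded side. The log2 difference of Alas2 was 0.37 ± 0.42 (SE, edgeR adjusted p = 0.9998). Tfrc had 124, 173 and 386 CPM without and 162, 213 and 387 with loading. Fech, which puts the iron into heme in the last step of the path, had 84.1, 129 and 217 CPM without and 120, 165 and 288 with loading, again in overlapping groups.

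Of the membrane genes, Slc4a1 had 143, 362 and 1227 CPM in WT non-loaded and 242, 631 and 1355 CPM in WT loaded ulnae, and its log2 difference was 0.44 ± 0.44 (SE). Kel, with the largest difference of the 35, had 6.92, 18.6 and 46.6 CPM without and 12.5, 28.0 and 57.3 with loading. Its difference of 0.53 ± 0.39 had an unadjusted p of 0.193. Sptb, the beta chain of red cell spectrin, which skeletal muscle also makes, had 202, 321 and 426 CPM without and 296, 351 and 494 with loading, a log2 difference of 0.17 ± 0.14. Tspan33, a tetraspanin of erythroblasts, and Add2 had differences of 0.50 ± 0.39 and 0.47 ± 0.36. All of these groups overlapped.

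Of the regulators, Klf1, a transcription factor that activates adult beta-globin, had 6.01, 15.2 and 45.1 CPM in WT non-loaded and 8.68, 21.4 and 54.2 CPM in WT loaded ulnae. Gata1 had 5.92, 15.6 and 38.7 CPM without and 10.3, 22.2 and 42.9 with loading. Epor, the erythropoietin receptor, had 6.92, 11.1 and 26.2 CPM without and 6.31, 14.5 and 29.8 with loading. The log2 differences of Klf1, Gata1 and Epor were 0.42 ± 0.43, 0.35 ± 0.37 and 0.29 ± 0.37, none beyond the spread between mice. Hemgn, a nuclear protein of blood progenitors and erythroblasts, had the highest level per length among the regulators and differed by 0.36 ± 0.45.

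The globins were among the genes with the smallest fitted differences, with a median of 0.20 over the 4. Hba-a2 had 30.6, 64.4 and 241 CPM in WT non-loaded and 36.8, 85.6 and 255 CPM in WT loaded ulnae, a log2 difference of 0.19 ± 0.47. Hbb-bs had 42.7, 86.3 and 328 CPM without and 39.6, 97.2 and 431 with loading, a difference of 0.24 ± 0.51. These groups overlapped too, and the lowest Hbb-bs level of all 14 WT libraries was in a loaded ulna, that of mouse 692.

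Which mice were in the fit set the size of the WT difference. The median over the 35 genes was 0.79 without mouse 699, 0.10 without mouse 694 and 0.21 without mouse 685. It was 0.51 without both 694 and 699, and 0.76 without 691 and 699. Without mouse 699 alone 19 of the 35 had an unadjusted p under 0.05, as did 7.22% of all genes in that fit, and 0 passed after adjustment (lowest adjusted p = 0.640, edgeR). Mouse 699 had the lowest limb difference of the WT mice (median -1.24), so leaving it out raises the WT values by construction. The 35 genes move together, so their number at this p does not count independent results.

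**Figure D2:**
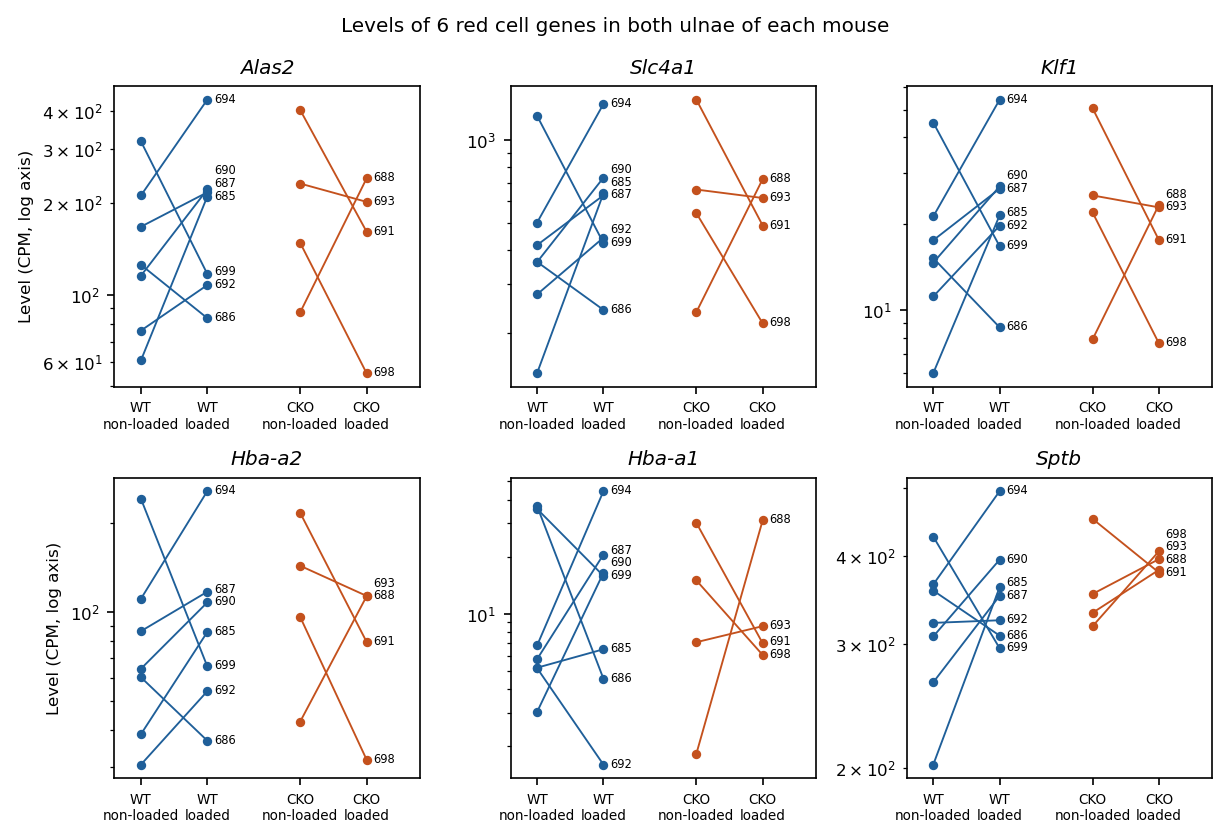
Levels of 6 genes in CPM on log axes; each line joins the non-loaded and the loaded ulna of 1 mouse, WT in blue and CKO in orange, with mouse numbers at the loaded end. Lines run up in some mice and down in others in both genotypes (Alas2 is higher in the loaded ulna of 5 of 7 WT and 1 of 4 CKO mice), Hba-a1 runs a course of its own, and Sptb spans a narrow range.

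The pairs of ulnae show what lay behind these averages. In each mouse nearly all 35 genes moved in 1 direction, and that direction differed between mice of the same genotype. In WT mice 685, 690 and 694 all 35 genes were higher in the loaded ulna, with medians of 1.49, 0.75 and 1.28 on the log2 scale. In mice 687 and 692 it was 34 and 29 of 35, with medians of 0.38 and 0.54. In mice 686 and 699 all 35 genes were lower in the loaded ulna, with medians of -0.39 and -1.24. Of all genes tested, 46.0% to 54.3% were higher in the loaded ulna in these 7 mice.

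In the knockouts, all 35 genes were higher in the loaded ulna of mouse 688 (median 1.48) and all 35 were lower in that of mouse 691 (median -1.33). In mouse 698 33 genes were lower (median -1.25), while Sptb and Ank1, the ankyrin that ties spectrin to band 3, were higher. In mouse 693 31 were lower, by little (median -0.16). Of all genes tested, 47.7% to 49.6% were higher in the loaded ulnae of these 4 mice. The counts of genes per mouse describe 1 pair of ulnae each, and genes that move together are not replicates.

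**Figure D3:**
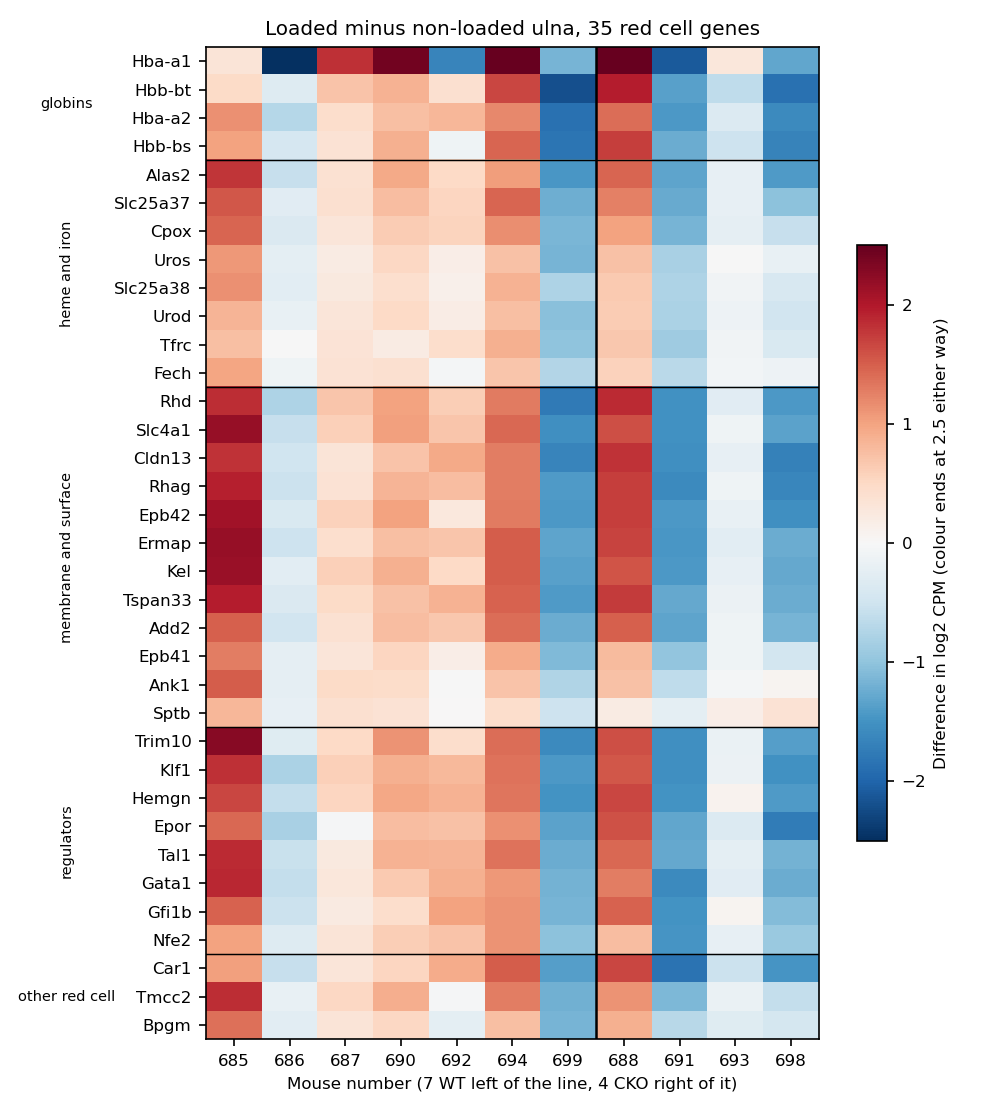
Loaded minus non-loaded log2 CPM of each gene (rows, by role) in each mouse (columns); red is higher and blue lower in the loaded ulna, and colours end at 2.5 either way, beyond which lie some values of Hba-a1. Columns are nearly of 1 colour: red in 685, 690, 694 and 688, blue in 699 and 691, pale in 693.

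Averaged over mice, the limb difference of each role group was smaller than its SD. In WT mice it was 0.22 ± 1.28 (mean and SD of log2 CPM, n = 7) for the globins, 0.28 ± 0.76 for heme and iron, 0.43 ± 1.02 for membrane and surface, 0.42 ± 1.04 for regulators and 0.32 ± 0.91 for the other red cell genes. In CKO mice (n = 4) the values were -0.29 ± 1.82, -0.20 ± 0.79, -0.25 ± 1.21, -0.37 ± 1.34 and -0.29 ± 1.07. With the counts of the 4 globins summed the difference was 0.21 ± 1.14 in WT and -0.43 ± 1.52 in CKO mice, and with the other 31 genes summed it was 0.36 ± 0.89 and -0.20 ± 0.92.

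Single mice moved these means as they moved the fitted values. In WT mice the globin mean was -0.036 without mouse 694 and 0.55 without mouse 699, and 0.31 without both. The heme and iron mean was 0.17 without 694 and 0.51 without 699, that of membrane and surface 0.30 and 0.72, and that of the regulators 0.29 and 0.71. Without mouse 685 the means of heme and iron, membrane and surface, and regulators were lowest, at 0.13, 0.21 and 0.21. In CKO mice the globin mean was -1.15 without mouse 688 and 0.13 without mouse 691. The heme and iron mean was -0.55 without 688 and 0.059 without 691, that of membrane and surface -0.81 and 0.078, and that of the regulators -0.98 and -0.012.

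The genes differed in how far they followed Alas2 from mouse to mouse. The slope of each gene's limb difference on that of Alas2, over 11 mice, serves here as a description. A slope of 1 means the same log2 difference as Alas2. It was 1.12 for Slc4a1, 1.11 for Rhag (the Rh-associated glycoprotein), 1.08 for Klf1, 1.06 for Kel, 1.0001 for Epor, 1.01 for Hba-a2 and 0.997 for Hbb-bs. Lower slopes were found for 9 genes, from 0.63 for Epb41, protein 4.1 of the skeleton, down to 0.24 for Sptb, and the next gene above them, Nfe2, had 0.73. The 9 included 5 of the 7 other heme and iron genes: Fech (0.43), Tfrc (0.50), the synthesis enzymes Urod (0.52) and Uros (0.54), and the mitochondrial glycine carrier Slc25a38 (0.52). The others of the 9 were Ank1 (0.50) and Bpgm (0.60), which makes 2,3-bisphosphoglycerate.

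Sptb shows this most. Its levels in CKO non-loaded ulnae were 332, 452, 353 and 318 CPM in mice 688, 691, 693 and 698, and 382, 379, 396 and 406 CPM in the loaded ulnae of the same mice. Alas2 in the same libraries had 87.4, 404, 232 and 148 CPM without and 241, 161, 202 and 55.2 CPM with loading. In mouse 698 Alas2 was lower in the loaded ulna by a log2 difference of -1.42 while that of Sptb was 0.35. Sptb overlaps Plekhg3 on the other strand, as Alas2 overlaps Apex2, Cpox overlaps Gpr15 and Uros overlaps Bccip. Ank1, Epb41 and Slc25a37 overlap unnamed gene models on the other strand. On the same strand Ank1, Kel, Car1, Slc25a37 and Add2 overlap such models. Whether counting used the strand is not given in the sources used here, and it could not separate overlaps on the same strand. Reads from all these overlaps therefore cannot be assigned with certainty.

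Hba-a1 followed Alas2 least closely. Its limb difference ran from -3.01 in mouse 686 to 4.05 in mouse 688, with an SD of 2.28 over 11 mice against 1.22 for Hba-a2. In CKO non-loaded ulnae it had 1.82, 30.1, 7.06 and 15.0 CPM and in CKO loaded ulnae 31.2, 6.96, 8.58 and 6.04 CPM (mice 688, 691, 693 and 698). It made up between 2.86% and 38.0% of the counts of its pair (median 12.0%). Hbb-bt, the lesser beta copy, kept between 6.47% and 15.9% of its pair (median 12.5%). The summed alpha pair gave limb differences of 1.69, -1.51, -0.30 and -1.55 in the 4 CKO mice, beside 1.75, -1.26, -0.53 and -1.69 for the summed beta pair. In 5 of the 7 WT mice the pairs had the same sign and lay within 0.20 of each other. In mouse 686 they were -1.23 for the alpha and -0.41 for the beta pair, and in mouse 692 0.64 and -0.045, of opposite sign. Counts of Hba-a1 were as low as 45 in a library, and the split between copies rests on how reads that fit both were apportioned.

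**Figure D4:**
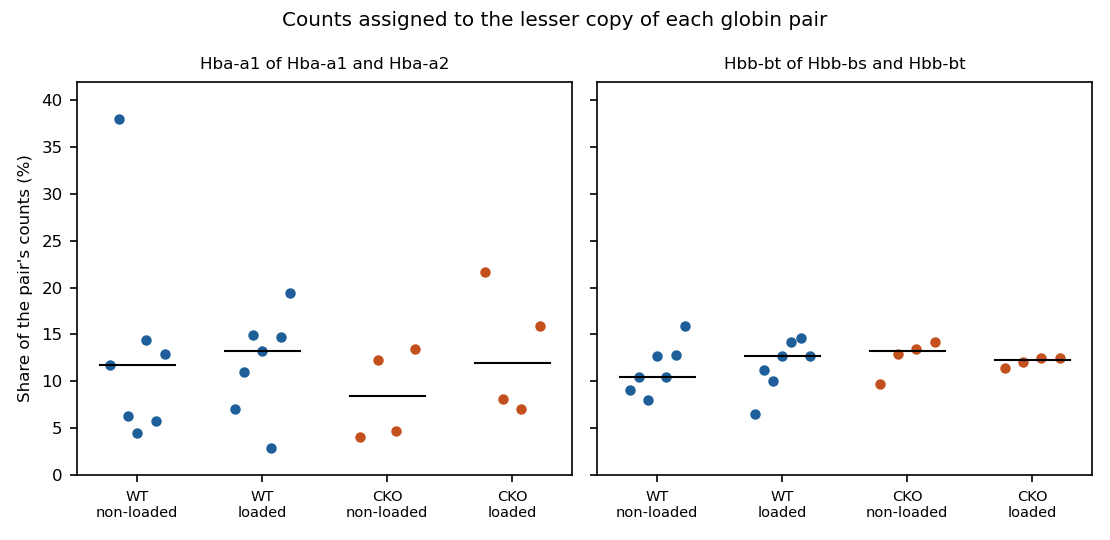
Share of each globin pair's counts assigned to Hba-a1 (left) and Hbb-bt (right), in percent, by group; points are libraries and bars group medians. Hba-a1 spreads from 2.86% to 38.0% and Hbb-bt from 6.47% to 15.9%.

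In the knockout mice most fitted loading differences lay below 0, and again none passed the test. The members called numbered 0 of 35, against 0.016% of all genes (3 genes), and none had an unadjusted p under 0.05, as 677 genes of all did (edgeR; DESeq2 also called 0 of the 35). The median was -0.42 beside -0.012 for all genes, and the lowest was Car1, the carbonic anhydrase of early red cell stages, at -0.82 ± 0.56 (SE, edgeR adjusted p = 0.739). Car1 had 12.8, 107, 47.3 and 39.1 CPM in CKO non-loaded and 41.0, 29.7, 32.4 and 14.1 CPM in CKO loaded ulnae of mice 688, 691, 693 and 698, so that it was higher with loading in 1 mouse and lower in 3. Gata1, with 10.02, 54.2, 22.1 and 22.1 CPM without and 24.5, 18.0, 18.3 and 9.26 with loading, differed by -0.64 ± 0.49. Nfe2, a subunit of a factor that binds globin control regions, differed by -0.59 ± 0.48. The 1 gene above 0 was Sptb at 0.10 ± 0.19.

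With 4 knockout mice, single animals decided this median. It was 0.093 without mouse 691, when 27 of the 35 genes lay above 0, and -0.94 without mouse 688. Without mouse 698 it was -0.25.

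The test of the difference between the loading effects, CKO minus WT, called 0 of 35 genes, against 0% of all genes, with 0 of the 35 and 488 genes of all at an unadjusted p under 0.05 (edgeR; DESeq2 also called 0 of the 35). All 35 values were below 0, from -1.18 ± 0.70 (SE) for Car1 to -0.070 ± 0.24 for Sptb, with a median of -0.79. The lowest adjusted p among them was 0.697. For Alas2 the value was -0.78 ± 0.70 and for Klf1 -0.99 ± 0.71. The median was -0.29 without mouse 691 and -1.27 without mouse 699. It was -1.29 without mouse 688, and -0.55 without mouse 694. Without mouse 699, 19 of the 35 had an unadjusted p under 0.05 (edgeR), as did 14.5% of all genes in that fit. Without mice 686 and 688, 9 of the 35 did, beside 11.7% of all genes. The lowest adjusted p of the 35 in these fits was 0.342 and 0.367. Mouse 699 had the lowest WT and mouse 688 the highest CKO limb difference. Leaving them out thus lowers these values by construction.

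Between genotypes most values lay above 0 in non-loaded and below 0 in loaded ulnae, and the 35 genes passed the test in neither. In non-loaded ulnae the members called numbered 0 of 35 against 0% of all genes, with 0 of the 35 and 572 of all at an unadjusted p under 0.05 (edgeR; DESeq2 also called 0 of the 35). The median difference, CKO minus WT, was 0.46, and 34 of 35 lay above 0. Car1 had the largest value at 0.95 ± 0.48 (unadjusted p = 0.0621, edgeR adjusted p = 0.976), and its CKO levels given above lie within or above the WT range of 12.1 to 60.2 CPM. Hba-a1 was the 1 gene below 0, at -0.056 ± 0.83. The median was 0.018 without mouse 691, 0.83 without mouse 699 and 0.73 without mouse 688. Without mice 694 and 699 it was 0.93, and 32 of the 35 genes then had an unadjusted p under 0.05, as did 15.7% of all genes in that fit, with a lowest adjusted p of 0.288 (edgeR). These mice were left out after the data were seen, and dropping mouse 699, the highest WT non-loaded library, raises CKO minus WT by construction.

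In loaded ulnae the members called numbered 0 of 35 against 0% of all genes, with 0 of the 35 and 1280 of all at an unadjusted p under 0.05 (edgeR; DESeq2 also called 0 of the 35). The median was -0.29 beside -0.042 for all genes. The 3 values above 0 were those of Sptb (0.11 ± 0.17), Ank1 (0.073 ± 0.27) and Fech (0.0039 ± 0.25), and the lowest was that of Klf1 (-0.49 ± 0.51, adjusted p = 0.712). Klf1 had 23.3, 17.5, 22.8 and 7.64 CPM in CKO loaded ulnae (mice 688, 691, 693 and 698), within the WT loaded range but for the last. The median was 0.022 without mouse 694 and -0.063 without mouse 698. It was -0.51 without mouse 688. These genotype contrasts share their libraries with the loading contrasts, so the 5 sets of values are not independent.

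In each of the 4 pairs of groups that differ in limb or genotype, the ranges of all 35 genes overlapped. Of all genes tested, 0.0585% did not overlap between WT non-loaded and WT loaded, 2.09% between CKO non-loaded and CKO loaded, 0.186% between the non-loaded groups and 1.23% between the loaded groups.

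Markers of other cells moved with the red cell genes in several mice. In mouse 691 the mean limb difference of 8 skeletal muscle markers was 2.62, beside -1.33 for the red cell median, and in mouse 699 it was 1.099 beside -1.24. In mouse 698 it was 0.95 beside -1.25, and in mouse 694 -1.29 beside 1.28. The neutrophil markers had -1.29, -1.11, -0.75 and 0.95 in these 4 mice, and the B cell markers -1.102, -0.57, -1.09 and 1.32, so that red cell, neutrophil and B cell genes had the same sign there and muscle the other. All 8 muscle markers were detected in each group, with summed levels of 34487 to 128415 CPM in WT non-loaded, 41132 to 136849 in WT loaded, 19821 to 139274 in CKO non-loaded and 100182 to 154628 in CKO loaded ulnae. None of the markers was at or near 0, and the part of muscle in the red cell differences was not tested.

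In mice 685 and 688 the lymphocyte lists did not have the sign of the red cell genes. The same held in mice 686, 687 and 690, whose red cell medians were -0.39, 0.38 and 0.75. There B cells had 0.15, -0.20 and -0.15, and T and NK cells 0.15, -0.10 and -0.21. In mice 692 and 693 the lymphocyte lists had the sign of the red cell genes. In mouse 685 the red cell median was 1.49 and the megakaryocyte mean 1.85, while neutrophils had 0.0074, B cells -0.091, T and NK cells -0.63, macrophages -0.48 and muscle 0.57. In mouse 688 the red cell median was 1.48 and the megakaryocyte mean 0.98, while neutrophils had 0.41, macrophages 0.41, B cells -0.092, T and NK cells -0.54 and muscle -0.52. Muscle thus had the sign of the red cell genes in mouse 685 and the other sign in mouse 688. It also had their sign in mouse 687 (0.56), and the other sign in mice 686 (0.10), 690 (-0.35), 692 (-0.77) and 693 (0.21). The mean of 8 cell cycle genes was 0.89 in mouse 685 and 1.07 in mouse 688. In mouse 685 the megakaryocyte list had the highest value of the 10 lists, and in mouse 688 the cell cycle list, followed by the megakaryocyte list. The summed megakaryocyte level ranged from 352 to 1798 CPM in WT non-loaded and 559 to 1299 in WT loaded ulnae, and from 515 to 2166 and 448 to 965 in the CKO groups.

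**Figure D5:**
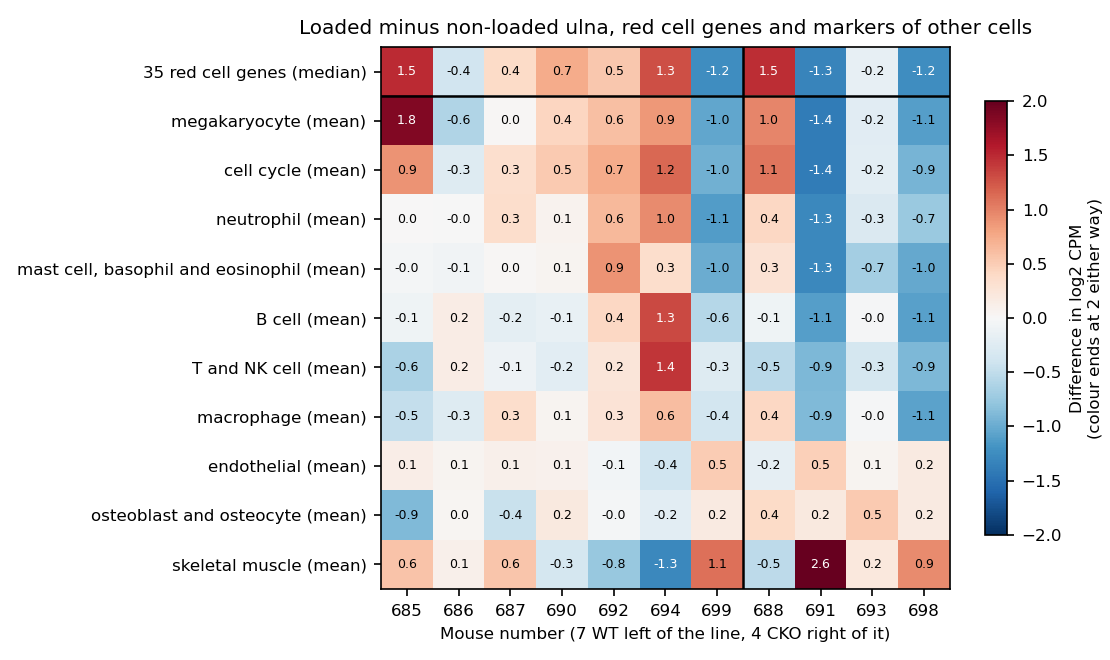
Loaded minus non-loaded log2 CPM per mouse for the 35 red cell genes (median, top row) and for 10 lists of 8 markers each (mean over the list); numbers in the cells are the values and colours end at 2 either way. In mice 691, 699 and 698 the blood lists are blue and muscle is red, in mouse 694 the reverse, and in mouse 685 red cell (1.5) and megakaryocyte (1.8) genes stand out.

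Over the 22 libraries, with group means removed, 26 of the 34 other genes correlated with Alas2 at a Pearson r over 0.9, a level that 144 genes (0.766%) of all tested reached. This is a description across 22 libraries, pairs of which come from the same mouse. The lowest were Hba-a1 (0.678), Sptb (0.696) and Nfe2 (0.786). Genes on any list used here, pathway and marker lists included, and unnamed gene models were then left out. The 5 remaining genes with the highest r ranked 3, 5, 7, 9 and 11 among all tested genes other than Alas2. They were Tent5c (0.984), a cytoplasmic poly(A) polymerase, Rsad2 (0.974), an interferon-induced antiviral enzyme, and Ube2o (0.973), a ubiquitin-conjugating enzyme of maturing red cells. Samd11 (0.971) and Ypel4 (0.970) followed.

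The other genes of the pathway were taken from further lists, in which no gene passed the test in any of the 5 contrasts. Of 14 genes of heme synthesis and breakdown, 11 had a fitted loading difference above 0 in WT and 5 in CKO mice. Alad, the second enzyme of the path, differed by 0.35 ± 0.27 (SE) in WT and -0.36 ± 0.36 in CKO mice. Of 14 genes of iron handling it was 11 and 3, of 14 erythroid transcription factors 13 and 1, and of 24 other red cell genes 22 and 3. Among the latter Trim58, a ubiquitin ligase of late erythroblasts, had 0.57 ± 0.42 in WT mice. Alas1, the form of the first enzyme used in other tissues, had a slope of 0.086 on Alas2.

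Of 12 genes of erythropoietin signalling, 8 had a fitted loading difference above 0 in WT and 5 in CKO mice. Socs3, an inhibitor of cytokine signalling that many cell types use, had the smallest p of this list. It was higher in the loaded ulna in 7 of 7 WT and 4 of 4 CKO mice, by 0.16 to 1.24 and by 0.53 to 1.71 on the log2 scale. The fitted differences of 0.51 ± 0.23 and 0.97 ± 0.31 missed the threshold (unadjusted p = 0.0391 and 0.00495, edgeR adjusted p = 0.9998 and 0.739). Its slope on Alas2 was -0.012.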

How the data were processed

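Per the labels' protocols, bones were stored in RNAlater, ground by mill in Trizol, and 4 ng of RNA entered a stranded kit for total RNA. Per the submitters' processing notes, RSEM and STAR were used with GRCm38; the sources used here do not give versions, annotation or strand setting. The deposited files hold the authors' expected counts per gene, all whole numbers, so rounding changed nothing; 25428 of 25471 identifiers matched a symbol. Gene lengths, overlaps and coding sequences were taken from GENCODE M21, also GRCm38. Totals were 21999891 to 42833729 counts per library.

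Samples were grouped by their labels, and the mouse number is the replicate. edgeR 4.0.16 (R 4.3.3, limma 3.58.1) was run on all 22 libraries in 1 model of 4 group means: filterByExpr kept 18793 genes, libraries were scaled by TMM, and glmQLFit (robust) and glmQLFTest were used, with Benjamini-Hochberg adjustment over all genes and a threshold of 0.05. There were 18 residual degrees of freedom and a biological coefficient of variation of 0.271. The standard error is the log2 difference divided by the square root of F. CPM values are on the TMM scale, and log2 CPM used a prior count of 2. Limb differences are loaded minus non-loaded log2 CPM of 1 mouse. The 54 pairs of libraries within groups differed by more than sampling noise (chi-square per gene 25.3 to 501). The fit was tested on simulated data, with counts drawn independently for each gene and library. They held no pairing of limbs and no genes that move together, so the test does not cover these features.

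A number marks 1 mouse, and its limbs are a pair. The limbs' deviations from group means correlated at -0.256 to 0.415 (median 0.189), over 0.1 in 7 of 11 mice. Alternatives were other scalings and filters, DESeq2 1.42.0, the mouse as a block or random effect, only the groups compared, and leaving out mice. Leaving out mice 694 and 699, the role groups without mice 686 and 688, and the summed globins were added after the data were seen. The genes, lists and tests were chosen with earlier results of these data known. Genes named with values were the marker Alas2, the globins, Slc4a1, Klf1, Gata1, Epor and Tfrc, the highest per length in each role, the 3 smallest p, the extremes and those of other direction in each contrast; some further genes are named for their slope, which was chosen after it was seen. Embryonic globins were not analysed here. Promoters are from RefSeq; 7 genes had no entry among those used. Counts measure relative levels only.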

Additional observations from a re-analysis of the deposited data

Results flagged for a closer look

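26 of 94 groups of values held a sample far from the others by Dixon's test at 95%. All 26 flags were on CPM and not on log2 values. The chance rate of about 1 in 20 groups is for normally distributed values. CPM can be skewed, so the 26 cannot be set against that rate. These genes move together and are not independent, and all 26 fall on 3 libraries.

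In 14 of them the far sample was the WT non-loaded ulna of mouse 699. There Hba-a2 had 241 CPM, Hbb-bs 328, Hbb-bt 62.0, Slc4a1 1227, Klf1 45.1, Epor 26.2, Tfrc 386, Tmcc2 368, Hemgn 128, Kel 46.6, Add2 75.2, Tspan33 74.2, Car1 60.2 and Nfe2 128 CPM. All of them were the highest of their 7 libraries.

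In 11 the far sample was the WT loaded ulna of mouse 694, also the highest of 7. There Alas2 had 437 CPM, Hba-a2 255, Hbb-bs 431, Hbb-bt 73.7, Klf1 54.2, Gata1 42.9, Tfrc 387, Tmcc2 439, Add2 110, Car1 82.3 and Fech 288 CPM.

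The last was Hba-a1 in the CKO loaded ulna of mouse 688, with 31.2 CPM against 6.04 to 8.58 CPM in the other 3 CKO loaded ulnae.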

How the results depend on the processing

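None of the 35 genes passed the test in any of 109 fits (lowest adjusted p = 0.288, edgeR or DESeq2). Of 2080 values of 100 single-gene results, 83 changed sign, in 19 genes. All 83 came from leaving out mice or from the mouse as a block or random effect. Other scalings, other filters and DESeq2 changed no sign. The cause was not tested. Scaling by library totals moved the median limb difference of all genes in CKO mice from -0.014 to -0.13.

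Of all genes, DESeq2 called 11 for loading in WT, 22 in CKO, 5 between genotypes without and 1 with loading. With the replicate block the counts for loading were 2 in WT and 5 in CKO mice, the member medians 0.38 and -0.35, and Ank1 turned to 0.029 in CKO mice; the block changed no other call or named direction. With only the 2 groups compared they were 0 for loading in CKO and 1 for genotype in non-loaded ulnae. Leaving out 1 mouse gave 0 to 2 genes for loading in WT, 0 to 5 in CKO and 0 to 1 for genotype in non-loaded ulnae. The globin ratio was 4.00 with means and 12.4 with summed pairs.

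Without mice 694 and 699 the counts were 0 for loading in WT and 6 in CKO. Hba-a1 was then -0.21 for loading in WT, 0.13 for the interaction, and between genotypes 0.27 without and 0.41 with loading. In loaded ulnae the genotype values were 0.095 for Hba-a2, 0.21 for Hbb-bs, 0.41 for Hbb-bt, 0.13 for Tfrc, 0.0084 for Tmcc2, 0.067 for Hemgn and 0.15 for Car1.

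Without mice 691 and 699 the counts were 0 for loading in WT and 1 in CKO. Loading in CKO mice was then 0.091 for Alas2, 0.92 for Hba-a1, 0.11 for Slc4a1, 0.083 for Tfrc, 0.16 for Tmcc2, 0.090 for Hemgn, 0.16 for Kel, 0.17 for Add2, 0.18 for Tspan33, 0.14 for Fech and 0.25 for Ank1. The interaction of Hba-a1 was 0.36, and genotype in loaded ulnae -0.0036 for Fech.

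Without mice 686 and 688 the counts were 0 for loading in CKO and 1 for genotype in each limb. Genotype was 0.76 for Hba-a1 in non-loaded, -0.11 for Fech and -0.055 for Ank1 in loaded ulnae. With the replicate block as random effect it was 0.076 for Hba-a1 in non-loaded and 0.012 for Tfrc in loaded ulnae.

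Leaving out 1 mouse, lowest to highest, loading in WT was -0.50 to 0.77 for Hba-a1, -0.17 to 0.76 for Hba-a2, -0.28 to 0.81 for Hbb-bs, -0.54 to 1.05 for Hbb-bt, -0.0090 to 0.79 for Car1 and -0.0035 to 0.64 for Nfe2. Loading in CKO was -0.88 to 0.093 for Alas2, -1.25 to 0.92 for Hba-a1, -0.96 to 0.11 for Slc4a1, -0.47 to 0.079 for Tfrc, -0.64 to 0.16 for Tmcc2, -0.94 to 0.086 for Hemgn, -0.97 to 0.16 for Kel, -0.86 to 0.17 for Add2, -0.85 to 0.18 for Tspan33, -0.30 to 0.13 for Fech and -0.21 to 0.24 for Ank1. The interaction was -1.39 to 0.77 for Hba-a1 and -0.20 to 0.078 for Sptb. Genotype in non-loaded ulnae was -0.83 to 0.39 for Hba-a1, -0.037 to 0.91 for Klf1, -0.050 to 0.70 for Epor, -0.028 to 0.88 for Kel, -0.034 to 0.80 for Add2, -0.023 to 0.83 for Tspan33 and -0.16 to 0.89 for Nfe2. In loaded ulnae it was -0.49 to 0.047 for Alas2, -1.10 to 0.26 for Hba-a1, -0.47 to 0.12 for Hba-a2, -0.61 to 0.21 for Hbb-bs, -0.64 to 0.35 for Hbb-bt, -0.16 to 0.12 for Tfrc, -0.44 to 0.022 for Tmcc2, -0.38 to 0.056 for Hemgn, -0.42 to 0.15 for Car1 and -0.059 to 0.19 for Fech.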
